A study of Homo sapiens with 8 samples.

Results

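A set of 9 genes that the tumour suppressor p53 is known to switch on were followed in cells labelled HepG2 and given sodium benzoate (SB), a food preservative from which cells make benzoyl-CoA, the donor for benzoylation of histone lysines. The members were listed by name as targets of p53, and 8 of the 9 (MDM2, TP53INP1, SESN1, ZMAT3, FDXR, RRM2B, XPC and TP53I3) have a row among the 14526 genes of the authors' table. GDF15, a secreted stress factor, has no row there and is not described further. RNA was sequenced from 4 biological replicates of untreated control cells and 4 replicates kept for 24 h in 10 mM SB, all grown in DMEM with serum and carrying the label HepG2, a line from a human liver carcinoma. Levels are given in RPKM, reads scaled to gene length and library size, so that they can be compared between genes. The question is how the level of each target gene, and of the genes around p53, differed after SB.

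p53 is a transcription factor that is kept low in resting cells because its own target MDM2, a ubiquitin ligase, marks it for destruction. Damage or metabolic stress frees p53, which then binds paired DNA decamers near its targets and raises genes that stop the cell cycle, repair DNA, adjust metabolism or start cell death. p53 is controlled mostly as a protein, which was not measured here. Several of its targets also answer to other transcription factors, so a change in the RNA of a target does not measure p53 activity by itself.

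Each library held between 37010896 and 44903216 recovered reads. Control replicate 1 stood apart. Its chi-square against the other controls, divided by the degrees of freedom, ranged from 33.4 to 38.5, and that of all other pairs within a group from 1.52 to 3.81. Several results are therefore given with and without this library. The labelled cell type was checked on 19 hepatocyte markers. Of these, 17 have no row, among them ALB, APOA1, TTR, SERPINA1 and HNF4A, and the 2 with a row (TF and CYP2E1) summed to between 0.335 and 0.431 RPKM in the controls and between 0.936 and 1.12 RPKM after SB. HepG2 cells normally express such genes, so the levels go against the label, and the identity of the line was not tested. TF averaged 21 reads per control library and 44 per SB-treated library, and CYP2E1 averaged 12 and 48. The authors kept genes above 1 CPM (reads scaled to library size) in at least 2 samples. TF and CYP2E1 met this only through SB-treated libraries, so their rise cannot be read apart from that filter.

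The DNA that p53 recognises shows which of these genes carry a close match to its element. The p53 consensus element consists of 2 decamers placed next to each other, and each decamer has a 4-base core, CATG in its best-known form. It was searched without a spacer within 2500 bases on either side of the canonical GENCODE release 44 start of each gene in hg38, with both cores intact and at most 2 mismatches elsewhere. The element reads the same on both strands. Of 13291 genes searched, 2.25% held such an element, as did 2 of the 8 members with a row and 22.4% of 67 other p53 targets. An element without mismatch was found in 0.0602% of all genes, and among the listed genes in ZMAT3 and PLK2. Elements of 9 targets whose levels are given below are printed 5′ to 3′ on the gene's strand, with the cores in capitals. That of ZMAT3 lies in intron 1 at chr3:179070188-179070207 and that of PLK2 upstream of the start at chr5:58462274-58462293. Those of CDKN1A (chr6:36676449-36676468) and BTG2 (chr1:203303642-203303661) also lie upstream, as does that of AEN (chr15:88621306-88621325). Introns hold those of GADD45A (intron 3, chr1:67686775-67686794), CCNG1 (intron 1, chr5:163437926-163437945), FAS (intron 1, chr10:88991309-88991328) and CMBL (intron 1, chr5:10307584-10307603). A second match in intron 2 of CCNG1 and matches in exons of GLS2 and GADD45B are not printed.
ZMAT3: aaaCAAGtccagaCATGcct
PLK2: aaaCATGcctggaCTTGccc
CDKN1A: gaaCATGtcccaaCATGttg
BTG2: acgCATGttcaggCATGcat
AEN: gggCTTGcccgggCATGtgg
GADD45A: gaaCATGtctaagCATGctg
CCNG1: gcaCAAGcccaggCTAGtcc
FAS: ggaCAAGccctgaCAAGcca
CMBL: acaCAAGcccacaCAAGccc

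A match is a description of the letters and not evidence of binding. No such match was found within this window for MDM2, SESN1, FDXR, XPC, TP53I3 or TP53INP1. Of the 17 members and other targets with a row that held an element, 7 rose and 8 fell after SB in the test described next. Of the 58 without one, 20 rose and 17 fell. The called shares were 88.2% with an element and 63.8% without, against 65.6% of all genes.

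Among the 8 members, TP53INP1, MDM2 and ZMAT3 rose after SB and FDXR and SESN1 fell, while XPC, RRM2B and TP53I3 did not pass the test. A gene was called where its p-value in limma on log2(RPKM + 1) was below 0.05 once adjusted over all 14526 genes by the Benjamini-Hochberg method. By this rule 65.6% of all genes were called, 33.0% higher and 32.6% lower, so 5 called of 8 is close to the background share. In bulk RNA, fewer cells of a kind and less RNA per cell cannot be told apart. The median log2 fold change of the members was -0.02, against 0.00 for all genes. Without control replicate 1, 3 members were higher and 3 lower, TP53I3 being the addition. In the controls the order of levels was MDM2 (23.3 RPKM), XPC (19.3 RPKM), RRM2B (9.27 RPKM), FDXR (9.17 RPKM), SESN1 (8.94 RPKM), TP53I3 (6.14 RPKM), ZMAT3 (2.62 RPKM) and TP53INP1 (2.35 RPKM). RRM2B, FDXR and SESN1 overlapped in their replicates, and each of the other neighbours was separated in every control. The median over all genes was 8.30 RPKM.

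MDM2, the ubiquitin ligase that closes the feedback loop on p53, lies on chromosome 12 of hg38 from 68808177 to 68845544. It was at 24.1, 23.1, 23.8 and 22.1 RPKM in control replicates 1 to 4 and at 29.6, 28.2, 28.3 and 28.5 RPKM in SB-treated replicates 1 to 4. All SB-treated values lay above all control values. The mean rose from 23.3 ± 0.885 to 28.6 ± 0.637 RPKM (SD, n = 4), with 0.29 as the log2 fold change (SE 0.038, adjusted p = 1.08e-04 in limma). Between 6432 and 10027 reads per library stood behind these values. CPM, a gene on the opposite strand whose exons overlap those of MDM2, was at 1.89 RPKM in the controls and 2.0 RPKM after SB.

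TP53INP1, a stress-induced protein that promotes phosphorylation of p53 and autophagy, lies on chromosome 8 from 94925972 to 94949378 and had the largest rise among the members. Its levels were 2.48, 2.32, 2.42 and 2.19 RPKM in the controls and 3.83, 3.73, 3.80 and 3.62 RPKM after SB, without overlap. The mean of 2.35 ± 0.123 RPKM rose to 3.74 ± 0.0939 RPKM (SD, n = 4), 1.59 times the control level. The log2 fold change was 0.50 (SE 0.037, adjusted p = 3.62e-06 in limma) and 0.65 with a pseudocount of 0.1, since adding 1 to low values shrinks their ratios. NDUFAF6, whose exons overlap on the opposite strand, fell, with a log2 fold change of -0.11 (limma adjusted p = 0.0196).

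ZMAT3 encodes a zinc finger protein that binds RNA, and it carries the unmismatched element printed above. It lies on chromosome 3 from 178960121 to 179072215. Its levels were 2.67, 2.71, 2.51 and 2.60 RPKM in the controls and 3.16, 3.05, 3.04 and 3.01 RPKM after SB, again without overlap. The log2 fold change was 0.17 (SE 0.033, adjusted p = 0.00155 in limma). When GC content and gene length were corrected for, it was 0.08 with an adjusted p of 0.0635 in limma, so the call for ZMAT3 depended on that correction.

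FDXR, the mitochondrial ferredoxin reductase that passes electrons towards iron-sulfur cluster and steroid synthesis, had the largest fall among the members. It lies on chromosome 17 from 74862497 to 74873031. Its levels were 7.56, 9.74, 9.96 and 9.40 RPKM in the controls and 5.68, 6.65, 6.41 and 6.03 RPKM after SB. Control replicate 1 was the lowest control, yet it remained above every SB-treated value. The mean of 9.17 ± 1.09 RPKM fell to 6.19 ± 0.425 RPKM (SD, n = 4), with a log2 fold change of -0.49 (SE 0.079, adjusted p = 3.99e-04 in limma). Without control replicate 1 the log2 fold change was -0.57.

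SESN1, a sestrin that restrains the growth kinase mTORC1 and limits peroxides, lies on chromosome 6 from 108984309 to 109094846. It was at 10.5, 8.45, 8.69 and 8.15 RPKM in the controls and at 7.27, 7.74, 7.0 and 7.31 RPKM after SB. Here control replicate 1 was the highest control, and the groups did not overlap. The log2 fold change was -0.25 (SE 0.067, adjusted p = 0.00869 in limma), and -0.18 without that replicate. The related sestrin gene SESN2, singled out after its values were seen, moved the other way. It rose from 66.5 ± 5.42 to 85.3 ± 2.18 RPKM (SD, n = 4), with 0.36 as the log2 fold change (limma adjusted p = 4.25e-04).

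The remaining 3 members did not pass the test. XPC, which detects bulky DNA lesions for nucleotide excision repair, lies on chromosome 3 from 14145147 to 14178621. Its levels were 19.5, 19, 19.5 and 19.3 RPKM in the controls and 19.9, 20.3, 20.5 and 19.7 RPKM after SB. The groups did not overlap, but the log2 fold change was 0.05 (SE 0.031, adjusted p = 0.148 in limma). TP53I3, an NADPH-dependent quinone oxidoreductase, lies on chromosome 2 from 24077433 to 24085861. It was at 5.37, 6.27, 6.27 and 6.63 RPKM in the controls and at 5.56, 5.86, 5.76 and 5.49 RPKM after SB, and the groups overlapped through control replicate 1. Its log2 fold change was -0.10 (SE 0.055, adjusted p = 0.151 in limma), and -0.15 (adjusted p = 0.00186) in limma without that replicate. FAM228B, on the opposite strand with overlapping exons, rose from 1.82 to 3.09 RPKM (limma adjusted p = 2.38e-06).

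RRM2B, the p53-inducible subunit of ribonucleotide reductase that supplies DNA building blocks for repair, lies on chromosome 8 from 102204502 to 102238961 and has a close match to the p53 element in intron 1 with 1 mismatch. Its levels were 10.8, 9.03, 8.56 and 8.72 RPKM in the controls and 8.86, 8.78, 8.18 and 8.74 RPKM after SB. The groups overlapped. The log2 fold change was -0.09 (SE 0.064, adjusted p = 0.254 in limma), turned to 0.01 when library sizes were used without TMM factors, and was -0.02 without control replicate 1. After the GC and length correction it was -0.10 with an adjusted p of 0.011 in limma.

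**Figure D1:**
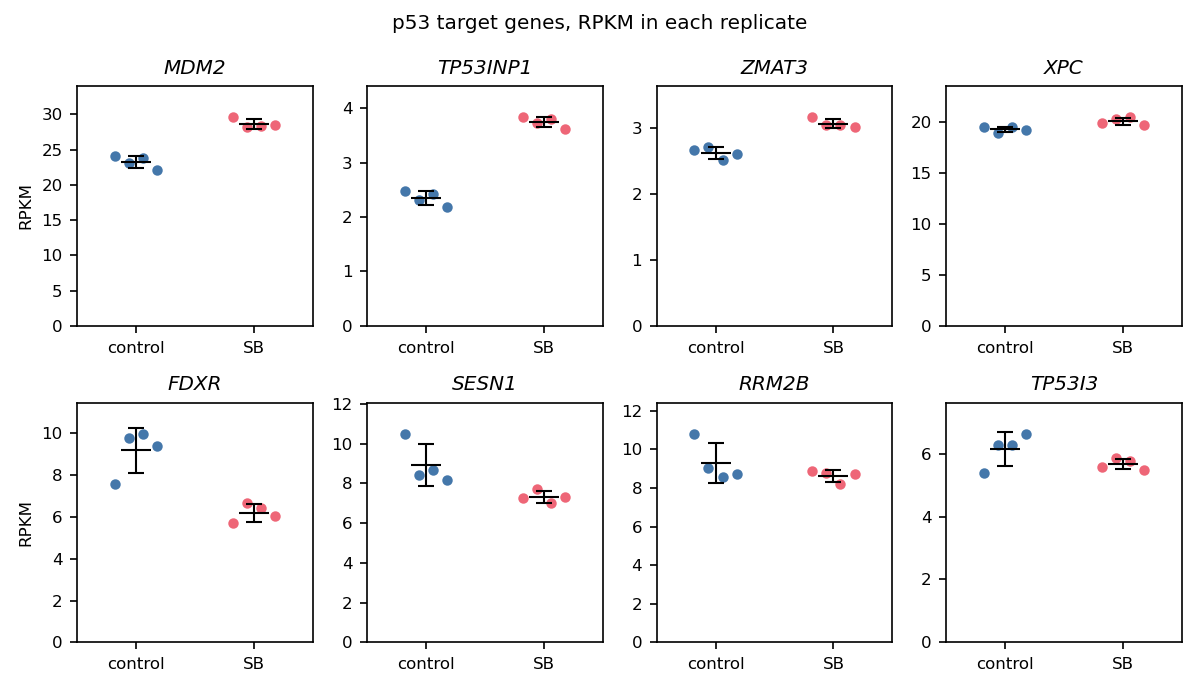
RPKM of the 8 p53 target genes in each control (blue) and SB-treated (red) replicate, with the group mean and SD (n = 4) in black and each axis starting at 0. The SB-treated points of MDM2, TP53INP1, ZMAT3 and XPC lie above all control points, those of FDXR and SESN1 lie below them, and the groups overlap for RRM2B and TP53I3.

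By exact two-sided permutation of the 4 and 4 replicates, the 6 members whose groups did not overlap had p = 0.0286, the smallest possible here. RRM2B had an exact p of 0.371 and TP53I3 an exact p of 0.20. Groups did not overlap for 31.0% of all genes with SB higher and for 30.5% with SB lower, against 4 and 2 of the 8 members. The strand setting of the read counting was not given in the sources used here. Where exons of MDM2, TP53INP1 and TP53I3 overlap those of opposite-strand genes, it is therefore not known whether their reads were kept apart. SESN1 and XPC also overlap exons of opposite-strand genes that have no row, and MDM2 those of a gene on its own strand.

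**Figure D2:**
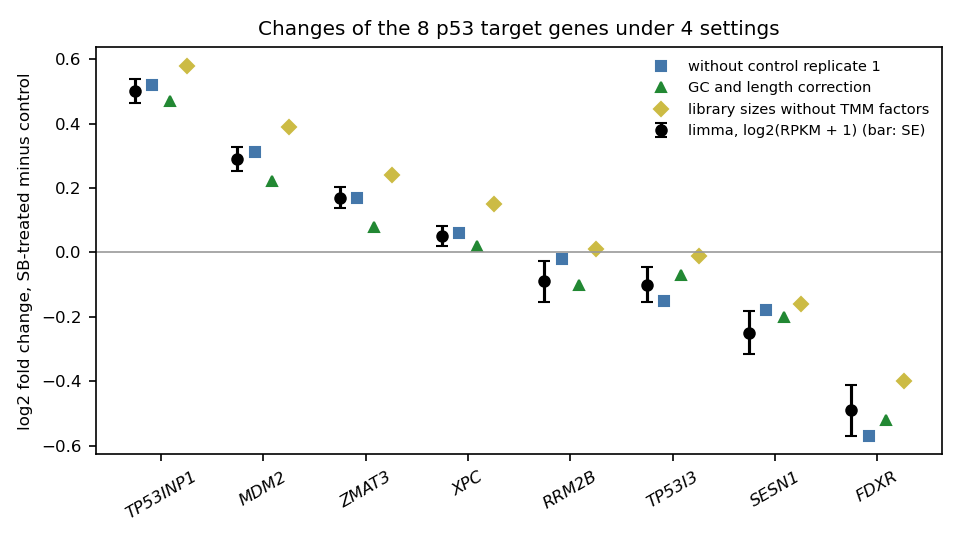
Log2 fold change (SB-treated minus control) of the 8 genes in limma on log2(RPKM + 1), with the standard error as a bar (black), and under 3 other settings. TP53INP1, MDM2, ZMAT3 and XPC stay above 0 and TP53I3, SESN1 and FDXR below 0 in all 4, while RRM2B is at 0.01 without TMM factors.

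Of 21 listed regulators and relatives of p53, 20 have a row, of which 6 rose, 11 fell and 3 did not pass the test. The called share was 85.0%, against 65.6% of all genes (33.0% higher, 32.6% lower). The median log2 fold change was -0.11. Without control replicate 1, 6 rose and 11 fell. After the GC and length correction 4 regulators were called higher and 9 lower, against 4840 and 5153 of 14090 genes. Without TMM factors 8 were called higher and 6 lower, against 6253 and 3357 of 14526 genes. The called share of the regulators thus depended on the setting. Among kinases that phosphorylate p53, HIPK2 rose from 14.7 ± 0.679 to 22.1 ± 0.382 RPKM (SD, n = 4), with 0.56 as the log2 fold change (limma adjusted p = 2.54e-06). The damage kinase ATM rose from 8.95 to 11.8 RPKM, with a log2 fold change of 0.36. ATR, CHEK1 and CHEK2, the other damage kinases listed, fell, with log2 fold changes of -0.12, -0.22 and -0.26. Without TMM factors these were -0.03, -0.12 and -0.16, and ATR was not called. After the GC and length correction they were -0.20 for ATR, -0.23 for CHEK1 and -0.17 for CHEK2. HIPK2 was then at 0.39 and ATM at 0.27, both still called.

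Ubiquitin ligases and other brakes on p53 did not move as a block. RCHY1, a ligase for p53, fell from 15.9 ± 0.992 to 10.2 ± 0.253 RPKM (SD, n = 4), with -0.60 as the log2 fold change (limma adjusted p = 4.00e-06). The phosphatase PPM1D, itself a p53 target, fell with a log2 fold change of -0.27, TRIM24 with -0.24 and the deubiquitinase USP7 with -0.14. Without TMM factors PPM1D (-0.17) and USP7 (-0.04) were not called and TRIM24 was at -0.14. USP7 was at -0.24 after the GC and length correction. MDM4, the partner of MDM2, was called higher with a log2 fold change of 0.17 (limma adjusted p = 0.0487). That call was lost with the pseudocount of 0.1 and after the GC and length correction, where the log2 fold change was 0.06. Without control replicate 1 the log2 fold change was 0.09 and still called. The call was also lost without control replicate 2 (0.19) and without any 1 SB-treated replicate (0.16 to 0.17). RFWD2 (also named COP1) had a log2 fold change of -0.08 and DAXX one of 0.07, and neither passed the test. DAXX was called lower after the GC and length correction (-0.13) and higher without TMM factors (0.17).

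Among activators of p53 that hold MDM2 in check, the ribosomal protein genes RPL5 and RPL11 fell, with log2 fold changes of -0.29 and -0.26. After the GC and length correction these were -0.02 and -0.01, and both genes have many near-identical pseudogene copies, so their values are uncertain. CDKN2A, whose row covers both p16 and p14ARF, fell from 58.5 ± 2.76 to 51.4 ± 3.75 RPKM (SD, n = 4), with -0.18 as the log2 fold change (limma adjusted p = 0.0181). It was not called after the GC and length correction (-0.15) or without TMM factors (-0.08). The acetyltransferase genes EP300 and CREBBP rose with 0.26 and 0.23, and after the GC and length correction EP300 was at 0.10 and called and CREBBP at 0.02 and not called. KAT5 was called lower with -0.09 (limma adjusted p = 0.0498). That call was lost under most alternatives, among them a pseudocount of 0.1, a mean of at least 1 RPKM, voom, the GC and length correction, the replicate block, and leaving out control replicate 3 or 4 or SB-treated replicate 2, 3 or 4. Without TMM factors its sign turned (0.01). TP53BP1 stood at 0.01 and did not pass the test. It was called lower after the GC and length correction (-0.09) and higher without TMM factors (0.1). The p53 relative TP73 rose from 2.63 to 3.98 RPKM, a log2 fold change of 0.46 (limma adjusted p = 3.23e-04), and TP63 has no row. TP73 was at 0.28 after the GC and length correction.

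Of 72 other listed p53 targets, 67 have a row. After SB 24 rose, 23 fell and 20 did not pass the test, with a median log2 fold change of -0.03. This called share of 70.1% is close to the 65.6% of all genes. Without control replicate 1 the counts were 28 and 28, and with library sizes without TMM factors 30 and 23. That setting moved the median log2 difference of all genes, computed here with a pseudocount of 0.1, from 0.01 to 0.11 and the share of called genes that were higher from 50.2% to 65.1%.

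The cell cycle arrest genes held the largest rise. CDKN1A encodes the cyclin-dependent kinase inhibitor p21, the best-known p53 target. It was at 6.77, 8.09, 7.43 and 8.39 RPKM in the controls and at 15.4, 16.8, 16.6 and 16.2 RPKM after SB, 2.12 times the control mean. Its log2 fold change was 1.0 (SE 0.06, adjusted p = 1.14e-06 in limma), and 0.98 after the GC and length correction. BTG2, an antiproliferative factor, rose with a log2 fold change of 0.32, and HEXIM1, an inhibitor of the elongation kinase P-TEFb, with 0.57. In the same group CCNG1, encoding cyclin G1, fell from 138 ± 11.4 to 104 ± 2.12 RPKM (SD, n = 4), with -0.40 as the log2 fold change (limma adjusted p = 1.62e-04). CCNG1 was at -0.26 after the GC and length correction. The kinase gene PLK2, at a control mean of 2.09 RPKM, fell with -0.39, and with -0.58 at a pseudocount of 0.1. The stress sensor GADD45A fell with -0.34, and was at -0.18 and not called after the GC and length correction. Of 11 genes of this group with a row, 3 rose and 3 fell, 54.5% called against 65.6% of all genes. CDKN1A and PLK2 thus both hold a printed element and moved in opposite directions.

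**Figure D3:**
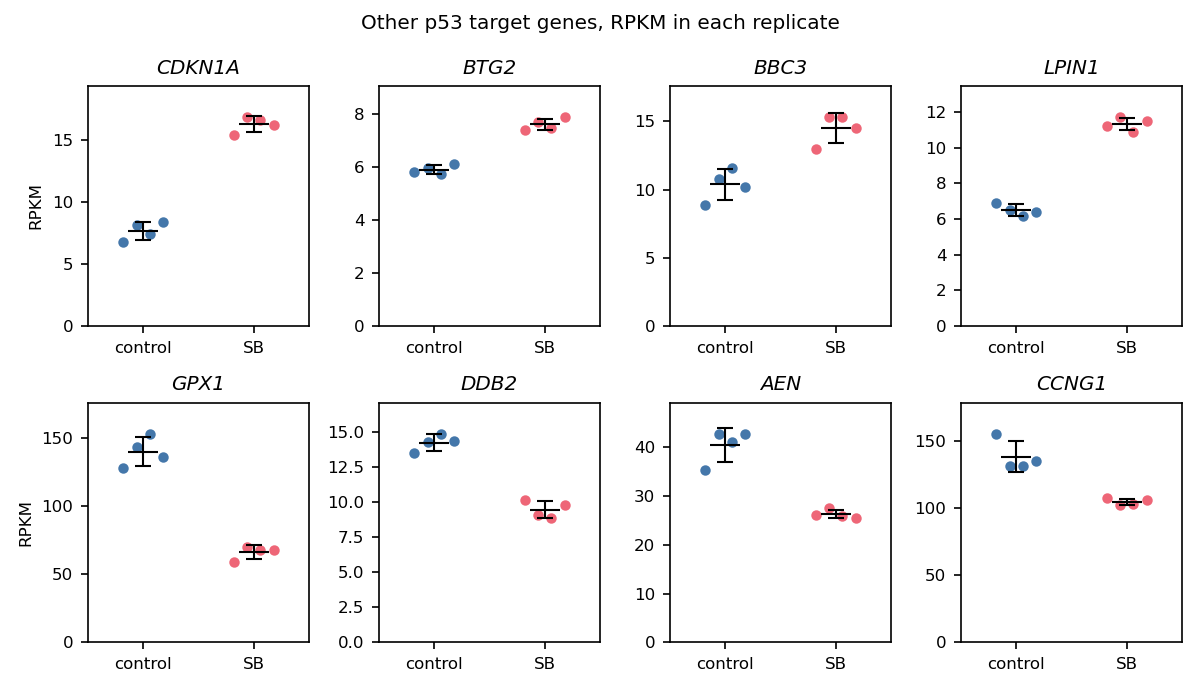
RPKM of 8 other p53 target genes in each control (blue) and SB-treated (red) replicate, with the group mean and SD (n = 4) in black. CDKN1A, BTG2, BBC3 and LPIN1 lie higher in all SB-treated replicates, and GPX1, DDB2, AEN and CCNG1 lie lower.

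Of 16 cell death genes with a row, 8 rose and 3 fell, with a median log2 fold change of 0.13. Their called share was 68.8%, close to the 65.6% of all genes. BBC3, which encodes the BH3 protein PUMA, rose from 10.4 ± 1.13 to 14.5 ± 1.09 RPKM (SD, n = 4), with 0.45 as the log2 fold change (limma adjusted p = 6.06e-04). CYFIP2 rose with a log2 fold change of 0.48 and the autophagy regulator DRAM1 with 0.40. With a pseudocount of 0.1 these were 0.53 and 0.55. The exonuclease gene AEN fell from 40.5 ± 3.57 to 26.4 ± 0.90 RPKM (SD, n = 4), with -0.60. as the log2 fold change TRIAP1, a small mitochondrial survival factor, fell with -0.39 and the death receptor gene FAS with -0.29, and these were -0.18 and -0.19 after the GC and length correction. BAX, named after its values were seen, was at 22.2, 31.2, 31.5 and 31.9 RPKM in the controls and at 25.1, 25, 24.6 and 23.9 RPKM after SB. Its log2 fold change was -0.22 (limma adjusted p = 0.0806), and -0.34 (adjusted p = 3.01e-06) in limma without control replicate 1, the control at 22.2 RPKM.

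Targets in metabolism and redox control included the largest fall. GPX1, a glutathione peroxidase, was at 128, 143, 153 and 136 RPKM in the controls and at 58.8, 70.2, 68.0 and 68.1 RPKM after SB. Its log2 fold change was -1.07 (SE 0.068, adjusted p = 1.61e-06 in limma). CMBL fell with -0.60 and CPT1C, a brain-type carnitine palmitoyltransferase, with -0.56. With a pseudocount of 0.1 these were -0.68 and -0.89. LPIN1, a phosphatidate phosphatase, rose with 0.72, the metalloreductase STEAP3 with 0.51 and the mitochondrial glutaminase GLS2 with 0.42, although GLS2 was below 2 RPKM in every library. With a pseudocount of 0.1 these were 0.80, 0.54 and 0.74. Of 10 genes with a row, 4 rose and 5 fell, 90.0% called against 65.6% of all genes.

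Of 8 DNA repair targets with a row, 4 fell and 1 rose, with a median log2 fold change of -0.21. Their called share was 62.5%, close to the 65.6% of all genes. DDB2, which recognises ultraviolet lesions alongside XPC, fell from 14.3 ± 0.594 to 9.49 ± 0.631 RPKM (SD, n = 4), with -0.54 as the log2 fold change (limma adjusted p = 1.19e-05). XRCC5, the larger Ku subunit, fell with -0.65 and GADD45B with -0.48. The translesion polymerase POLH rose with 0.17, and was at 0.04 and not called after the GC and length correction. Among 22 targets of other roles, 8 rose and 8 fell, 72.7% called against 65.6% of all genes. DDIT4, an inhibitor of mTORC1, fell from 401 ± 19.1 to 220 ± 4.28 RPKM (SD, n = 4), with -0.86 as the log2 fold change, with ZNF79 at -0.43 and VCAN at -0.40. The largest rises there on the log2(RPKM + 1) scale were 0.57 in FAM212B, 0.42 in TP53INP2 and 0.34 in SYTL1. FAM212B stayed first with a pseudocount of 0.1, at 0.82, and the order below it depended on the pseudocount. With 0.1, EPS8L2, named after its values were seen and below 1 RPKM in every library, had a log2 fold change of 0.56, TP53INP2 one of 0.53 and SYTL1 one of 0.48. EPS8L2 averaged 28 reads per control library and 50 per SB-treated library. It passed the authors' filter on scaled reads (above 1 CPM in at least 2 samples) only through SB-treated libraries. The rise of EPS8L2 therefore cannot be read apart from that filter.

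**Figure D4:**
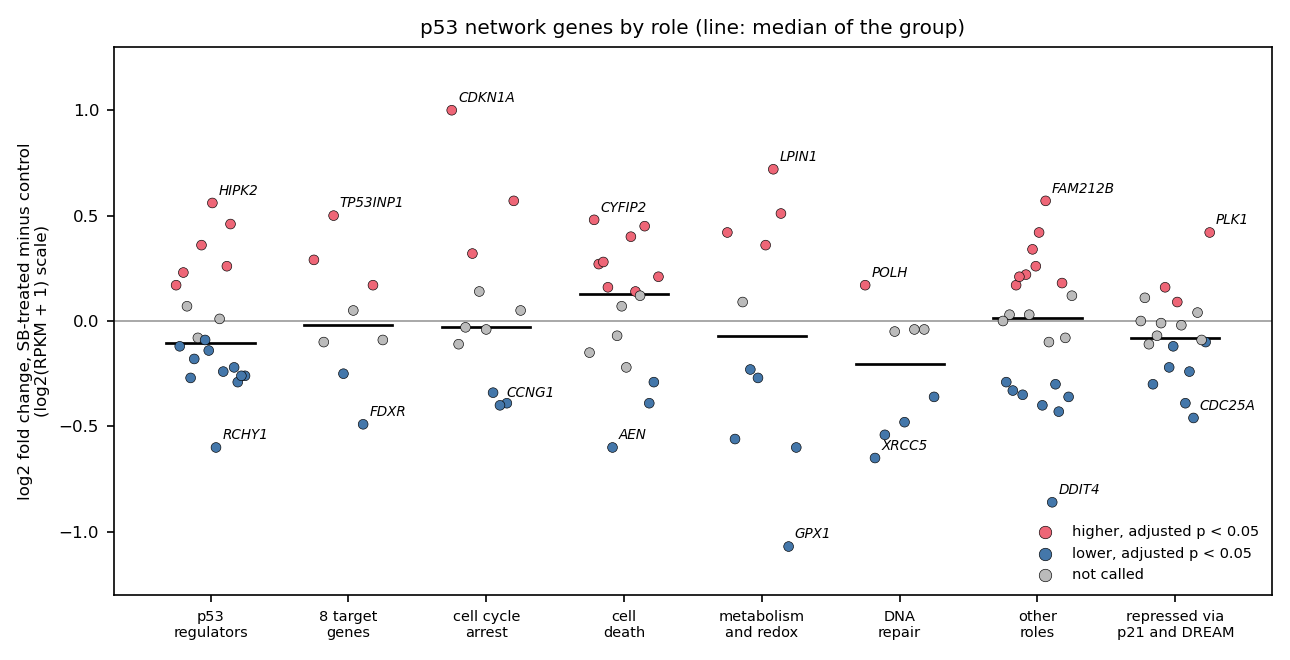
Log2 fold change (SB-treated minus control, on the log2(RPKM + 1) scale) of the listed p53 network genes with a row, by role. Each point is 1 gene, red and blue points passed an adjusted p of 0.05, black lines are medians, and the highest and lowest gene of each group is named. Every group holds genes above and below 0, from CDKN1A at 1.0 to GPX1 at -1.07.

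p53 also lowers many cell cycle genes indirectly, through p21 and the DREAM repressor complex. Of 18 such genes, 3 rose, 7 fell and 8 did not pass the test, with a median log2 fold change of -0.08. Their called share was 55.6%, against 65.6% of all genes. CDC25A fell from 71.4 ± 0.752 to 51.6 ± 0.243 RPKM (SD, n = 4), with -0.46 as the log2 fold change (limma adjusted p = 1.61e-06). CCNA2 fell with -0.39 and AURKB with -0.30, AURKB being at -0.16 after the GC and length correction. The mitotic kinase gene PLK1 rose from 48.0 ± 3.32 to 64.2 ± 2.06 RPKM (SD, n = 4), with 0.42 as the log2 fold change, MYBL2 with 0.16 and CCNB1 with 0.09. MYBL2 was at 0.10 without control replicate 1, and CCNB1 at 0.23 after the GC and length correction. The count of 3 rises was 1 when any SB-treated replicate was left out, MYBL2 and CCNB1 then losing their calls, 2 without control replicate 3 or 4, and 6 after the GC and length correction.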

How the data were processed

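RNA of 4 control and 4 SB-treated replicates was sequenced with a stranded total RNA kit as 50 bp single reads. Per the labels and the study's methods, the authors mapped the reads to hg38 with TopHat2 2.1.0, counted them per gene with featureCounts 1.5.0, kept genes with more than 1 CPM in at least 2 samples and scaled library sizes by TMM in edgeR 3.16.5. The authors deposited RPKM values, which are not counts. The mean log2 CPM column deposited by the authors was used to set the scale of recovered reads. Their log2 fold change, p-value and FDR columns were not used.

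The design assumed counts or RPKM, and RPKM was found. limma 3.58.1 (R 4.3.3) was run on log2(RPKM + 1), unfiltered, with group as the term and Benjamini-Hochberg adjustment over 14526 genes. Fold changes on this scale understate changes of low genes. Whole reads (within 0.02 reads in all 8 libraries) were recovered from the RPKM for 100.0% of genes. Fits were tested on simulated data. The depth, 37010896 to 44903216 reads per library, limits precision by counting error only.

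Named were all members, all regulators with a row, and up to 3 rises and 3 falls of each list. Some listed genes are not reported here and enter no list count. BAX, SESN2 and EPS8L2 were added after their values were seen. The members and lists were chosen with earlier results of these data known. P-values measure the spread between these cultures. Alternatives were a pseudocount of 0.1, median-of-ratios scaling, library sizes without TMM factors, a mean of at least 1 RPKM, a replicate block, leaving out each library, voom on the recovered reads, and a GC and length correction for the 97.0% of genes with a GC value, with and without the block. Elements were searched with Python 3.11.15.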

Additional observations from a re-analysis of the deposited data

Results flagged for a closer look

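In groups of 4, a replicate was marked where its gap to the nearest other replicate on the log2(RPKM + 1) scale, divided by the whole range, exceeded the critical value of Dixon's test. Of 132 such groups for 66 of the genes named, EPS8L2 not among them, 15 passed it. Chance gives about 1 in 20, or 6.6, and 10 of the 15 were control replicate 1. That replicate was lowest among the controls for MDM4 (0.937), STEAP3 (0.903), PLK1 (0.911), MYBL2 (0.922) and BAX (0.94), and highest for CHEK1 (0.897), TRIM24 (0.954), CCNG1 (0.841), CCNA2 (0.872) and PSAT1 (0.971). Among SB-treated replicates, replicate 3 was lowest for RRM2B (0.838) and highest for SYTL1 (0.882), replicate 1 was lowest for CDKN2A (0.914) and CMBL (0.878), and replicate 4 was highest for DRAM1 (0.852). Without control replicate 1 the log2 fold changes were -0.34 for CCNG1, -0.30 for CCNA2, 0.37 for PLK1 and 0.47 for STEAP3. They were -0.18 for CHEK1, -0.20 for TRIM24 and -0.40 for PSAT1. Outside the marked genes, GADD45A was then at -0.25, PPM1D at -0.18, TP73 at 0.38 and SYTL1 at 0.25. All of these kept their calls. What sets control replicate 1 apart was not tested.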

How the results depend on the processing

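Of 1056 values of the same 66 named genes under 16 alternatives, 989 changed neither direction nor call. Depth limits TP53I3 most among the members, at 435 to 551 reads per library. Library sizes without TMM factors left 1 member called lower in place of 2, 6 regulators in place of 11 and 4 genes repressed through p21 and DREAM in place of 7, with 5 of the latter higher in place of 3. In that setting SESN1 was at -0.16 and lost its call, as did PPM1D, USP7, ATR and CDKN2A. XPC (0.15), TP53BP1 (0.1) and DAXX (0.17) were then called higher. RRM2B (0.01), RFWD2 (0.02) and KAT5 (0.01) turned sign. All of these are read against the shift of all genes. The GC and length correction gave 6 higher genes repressed through p21 and DREAM, or 5 with the replicate block. With and without the block, ZMAT3 was at 0.08 and lost its call, and RRM2B at -0.1 gained one. TP53BP1 (-0.09) and DAXX (-0.13) turned sign and were called lower, opposite to their calls without TMM factors. The cause was not tested. When each library was left out, the genes repressed through p21 and DREAM that were higher numbered from 1 to 3, TP53I3 ranged from -0.15 to -0.06 and TP53BP1 from -0.01 to 0.03. The replicate numbers were not taken to pair the samples, since not every pair correlated: deviations of same-numbered replicates correlated at 0.38, 0.327, 0.173 and -0.16 for replicates 1 to 4, and 2 of 4 control replicates matched their own number best. With the replicate block, 3 members were higher and 2 lower, and 26 and 23 other targets. The block ended the calls of KAT5 (adjusted p = 0.0825) and CCNB1 (0.0728) in limma. MDM2 had 0.29 with a limma adjusted p of 4.29e-04.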

Other observations

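GDF15 and SESN2 are also known to be raised by the stress factor ATF4, so 11 ATF4 targets were listed beside the p53 targets. Of these, 4 rose and 1 fell after SB, with a median log2 fold change of -0.01. Their called share was 45.5%, against 65.6% of all genes. ATF3 rose from 87.7 ± 3.05 to 126 ± 1.05 RPKM (SD, n = 4), with 0.52 as the log2 fold change (limma adjusted p = 2.12e-06). PSAT1, an enzyme of serine synthesis, fell from 322 ± 19.1 to 237 ± 2.44 RPKM (SD, n = 4), with -0.44. as the log2 fold change Of 6 fibroblast markers, 3 have a row, summing to between 6.13 and 8.32 RPKM in the controls and between 6.07 and 6.29 RPKM after SB. Of 6 leukocyte markers, 2 have a row, summing to between 2.09 and 2.34 RPKM in the controls and between 2.18 and 3.14 RPKM after SB.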
